A study of Mus musculus with 6 samples.

Results

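The 10 genes described here serve antigen presentation by MHC class II and were chosen by name: the chain genes H2-Aa, H2-Ab1 and H2-Eb1, the invariant chain gene Cd74, the transactivator gene Ciita, the DM genes H2-DMa, H2-DMb1 and H2-DMb2, and the DO genes H2-Oa and H2-Ob. All 10 had a row among the 31053 genes in the files. They were followed in 6 single-cell RNA libraries of CD45-positive, propidium iodide-negative cells sorted from mouse brain. In Lyz2-cre mice (Cd300a-fl/fl Lyz2-cre, where the Lyz2 locus, active in myeloid cells, drives the Cre recombinase) and in fl/fl mice (Cd300a-fl/fl without Cre), both on a C57BL/6 background, brains were taken from naive animals, at 1 h and at 3 h of reperfusion after 60 min of occlusion of the middle cerebral artery with a filament. Both genotypes carry the floxed Cd300a alleles, so neither is a wild type. Each of the 6 combinations is 1 library made from 3 pooled brains. There is no second pool of any combination, so the spread between pools of 1 group is not known. The labels used here state neither the age nor the sex of the mice.

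An MHC class II molecule is a pair of an alpha and a beta chain that shows peptides from endosomes to CD4 T cells. H2-Aa encodes the alpha and H2-Ab1 the beta chain of I-A, and H2-Eb1 encodes the beta chain of I-E, whose alpha chain gene is not functional in C57BL/6 mice. CD74 holds the new pair together and blocks its groove, cathepsins trim CD74 in the endosome, DM removes the last piece so that a peptide can bind, and DO restrains DM. CIITA binds no DNA itself. It is recruited by RFX, CREB and NF-Y factors on a shared promoter module of X and Y boxes, and interferon gamma induces it in macrophages. In the resting brain, class II is typical of border-associated macrophages, dendritic cells and B cells, while microglia hold little of it.

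On GRCm38, 8 of the 10 genes lie within one stretch of chromosome 17, between the start of H2-Oa at 34092340 and the end of H2-Eb1 at 34316674. Ciita lies on chromosome 16 from 10480059 to 10528418, and all 10 are annotated as protein coding.

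Promoter windows of 300 bases, from 250 before to 50 after the gene start, came from RefSeq (GRCm38.p6). The table had 8 windows for 7 of the genes: H2-Aa, H2-Eb1, H2-Oa, H2-Ob, H2-DMb1, H2-DMb2 and H2-DMa, the last with 2. H2-Ab1 and Ciita had no entry, and Cd74 is not shown. The windows were searched for TGATTGG, the Y box letters (CCAAT on the opposite strand), and for GCAAC, letters of the X box core, lying 10 to 30 bases before TGATTGG on the gene's strand. The stretches below, of 65 bases, show the Y box letters in 6 of the 7 genes, with TGATTGG and any such GCAAC in capitals, 5′ to 3′ on the strand of the gene.
H2-Aa: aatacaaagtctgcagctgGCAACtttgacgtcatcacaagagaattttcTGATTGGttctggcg
H2-Eb1: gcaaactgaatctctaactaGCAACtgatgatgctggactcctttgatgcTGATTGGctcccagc
H2-Oa: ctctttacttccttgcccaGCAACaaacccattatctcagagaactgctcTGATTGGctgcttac
H2-Ob: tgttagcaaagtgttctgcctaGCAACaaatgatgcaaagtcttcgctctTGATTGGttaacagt
H2-DMb1: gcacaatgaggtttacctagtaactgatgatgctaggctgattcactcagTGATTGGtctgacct
H2-DMb2: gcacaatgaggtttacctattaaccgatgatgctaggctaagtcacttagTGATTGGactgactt
On chromosome 17 these are chr17:34287859-34287923 on the minus strand for H2-Aa, and, on the plus strand, chr17:34305756-34305820 for H2-Eb1, chr17:34092284-34092348 for H2-Oa, chr17:34238796-34238860 for H2-Ob, chr17:34153078-34153142 for H2-DMb1 and chr17:34145107-34145171 for H2-DMb2. In H2-Aa, H2-Eb1, H2-Oa and H2-Ob between 23 and 26 bases lay between GCAAC and TGATTGG. The DMb windows held TGATTGG without GCAAC at that spacing, and neither H2-DMa window held TGATTGG. Of all 32851 windows, 2568 (7.82%) held TGATTGG on either strand, 11566 (35.2%) held GCAAC on either strand, and 37 (0.113%) held GCAAC at that spacing before TGATTGG on the gene's strand. A match describes letters and is not evidence of a bound site.

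The 6 libraries held between 35479437 and 48478866 counts of unique molecular identifiers (UMIs) each. Levels are given as CPM, the UMIs of a gene for every 1e6 UMIs of its class in that library, and because each transcript is counted at its end they need no correction for length. After filtering, 47103 cells were used, with library medians of 3903 to 5223 UMIs per cell. Of the barcodes, 304 were shared by 2 libraries and 1 by 3. Clusters were made without the 10 class II genes and named from marker genes, so the ending -like means a marker-defined class. Against the label of the sort, 10 cells were erythroid-like and 835 cells stayed unnamed, and the rest fell in leukocyte or progenitor classes. For the naive, 1 h and 3 h libraries, Cd300a in neutrophil-like cells was at 11.7, 5.81 and 8.66 CPM in Lyz2-cre and at 173, 270.0 and 128 CPM in fl/fl mice. In monocyte-like cells it was at 225, 196 and 83.9 CPM in Lyz2-cre and at 456, 458 and 180 CPM in fl/fl mice. In microglia-like cells it was at 137, 171 and 163 in Lyz2-cre and 172, 212 and 206 in fl/fl mice, and in conventional dendritic cell-like cells at 200, 223 and 299.9 CPM in Lyz2-cre and at 174, 139 and 245 CPM in fl/fl mice. Lyz2 itself in microglia-like cells was at 0.329 to 0.647 in the Lyz2-cre libraries and 195 to 215 in the fl/fl libraries. In monocyte-like cells it was at 27.1 to 89.1 CPM in Lyz2-cre and at 19603 to 26253 CPM in fl/fl libraries. The genotypes thus differ in Lyz2 transcript as well as in Cre, and the parts of Lyz2, Cre and Cd300a cannot be told apart. The assay reads the polyadenylated end of transcripts, so the Cd300a levels do not measure how often the floxed exons were removed.

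Class II UMIs lay mostly outside microglia. The 37236 microglia-like cells were 79.1% of all cells and held 18.8% of the class II UMIs, while 245 conventional dendritic cell-like cells, 0.520% of cells, held 23.6%. Border-associated macrophage-like cells (339) held 17.6%, B-cell-like cells (857) 15.4% and monocyte-like cells (2115) 10.9%. Over all libraries the 10 genes together reached 50401 CPM in conventional dendritic cell-like, 49146 in border-associated macrophage-like, 26727 in B-cell-like, 3359 in monocyte-like, 580 in microglia-like and 86.8 in neutrophil-like cells. The order of dendritic cell-like, border-associated macrophage-like, B-cell-like, monocyte-like and microglia-like cells held in each of the 6 libraries, though the first pair lay close together in Lyz2-cre naive (59909 and 59642 CPM).

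**Figure D1:**
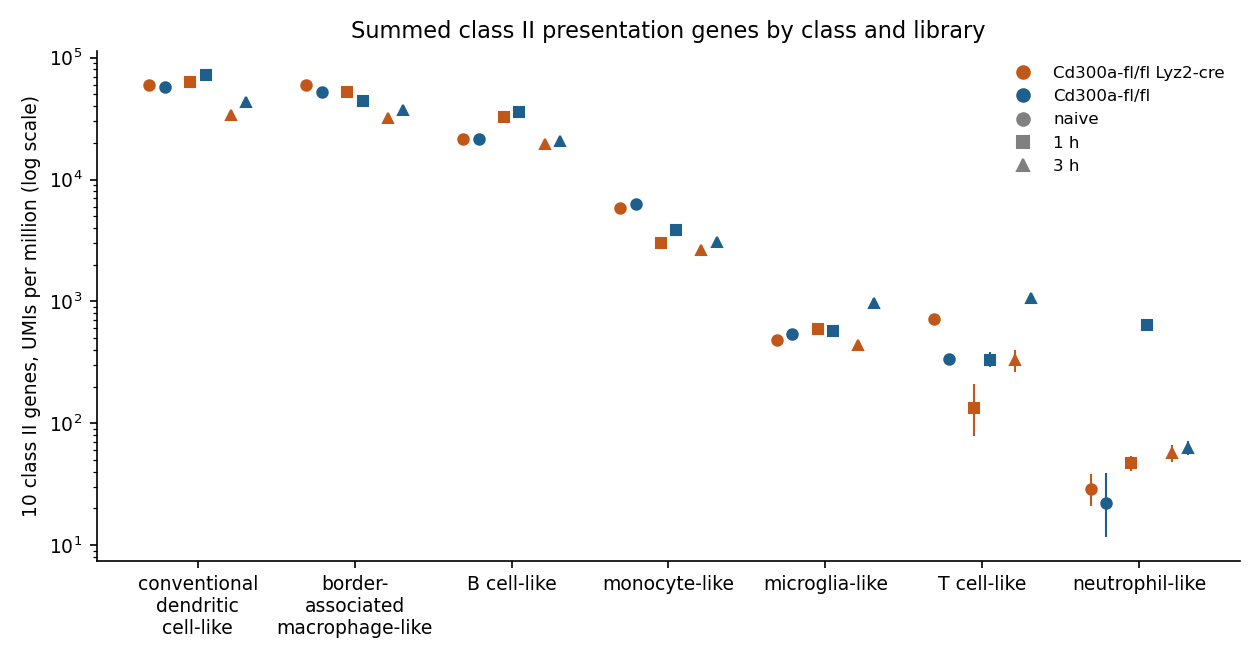
Summed level of the 10 class II genes (CPM within the class, log axis) in 7 classes, with Lyz2-cre libraries in orange left of fl/fl libraries in blue and the time given by the symbol; lines are exact Poisson intervals (95%), which cover counting error only. The fl/fl 3 h library stands at 972 CPM in microglia-like cells, above the other 5 libraries at 438 to 594 CPM.

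Among microglia-like cells the chain genes and Cd74 stood apart in a single library. Over the naive, 1 h and 3 h libraries, in that order here and below, H2-Aa was at 7.51, 2.70 and 5.17 CPM in Lyz2-cre and at 7.41, 3.59 and 71.6 CPM in fl/fl mice. Cd74 (chromosome 18 from 60803848 to 60812652, plus strand) was at 32.98, 60.7 and 88.1 CPM in Lyz2-cre and at 65.0, 72.2 and 394 CPM in fl/fl mice. For both genes the fl/fl 3 h library was the highest, and the Lyz2-cre 3 h library lay within the range of the naive and 1 h libraries for H2-Aa and just above it for Cd74. H2-Ab1 was at 13.7, 15.5 and 15.2 CPM in Lyz2-cre and at 15.8, 12.2 and 111 CPM in fl/fl mice. H2-Eb1 was at 5.23, 1.59 and 5.72 CPM in Lyz2-cre and at 5.87, 1.84 and 60.3 CPM in fl/fl mice. These beta chain genes showed the same picture, with 1 high library out of 6.

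Ciita, the transactivator gene, was near the limit of detection in microglia-like cells and was highest in the same library. Its UMIs were 3, 1 and 9 in the naive, 1 h and 3 h libraries of Lyz2-cre mice and 10, 1 and 51 in those of fl/fl mice, or 0.0988, 0.0346 and 0.306 CPM and 0.358, 0.0329 and 2.45 CPM. The 3 h library was the highest of its genotype in both. Summed over the 3 chain genes and Cd74, the level was 59.5, 80.5 and 114 CPM in Lyz2-cre and 94.1, 89.8 and 637 CPM in fl/fl mice.

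The peptide-loading genes did not share that pattern. H2-DMa was at 206, 250.4 and 165 CPM in Lyz2-cre and at 227, 241 and 184 CPM in fl/fl mice. H2-DMb1 was at 139, 155 and 91.9 CPM in Lyz2-cre and at 152, 146 and 85.8 CPM in fl/fl mice. In both genotypes these DM genes were lowest at 3 h, and for H2-DMa and H2-DMb1 alike both 3 h libraries lay below all other libraries. H2-DMb2 was at 5.43, 6.48 and 2.76 CPM in Lyz2-cre and at 5.94, 6.91 and 2.55 CPM in fl/fl mice. H2-DMb1 and H2-DMb2 are near-identical copies, and no source used here says how reads common to both were assigned, so their separate values are uncertain. H2-Oa was at 47.1, 75.0 and 44.1 CPM in Lyz2-cre and at 44.1, 57.6 and 41.2 CPM in fl/fl mice, and both 1 h libraries stood above the others. H2-Ob was at 23.01, 26.6 and 20.2 CPM in Lyz2-cre and at 19.6, 25.9 and 19.7 CPM in fl/fl mice, again highest at 1 h. The DM and DO genes made up most of the class II UMIs of microglia-like cells in 5 libraries, and the chains with Cd74 did so in fl/fl 3 h.

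**Figure D2:**
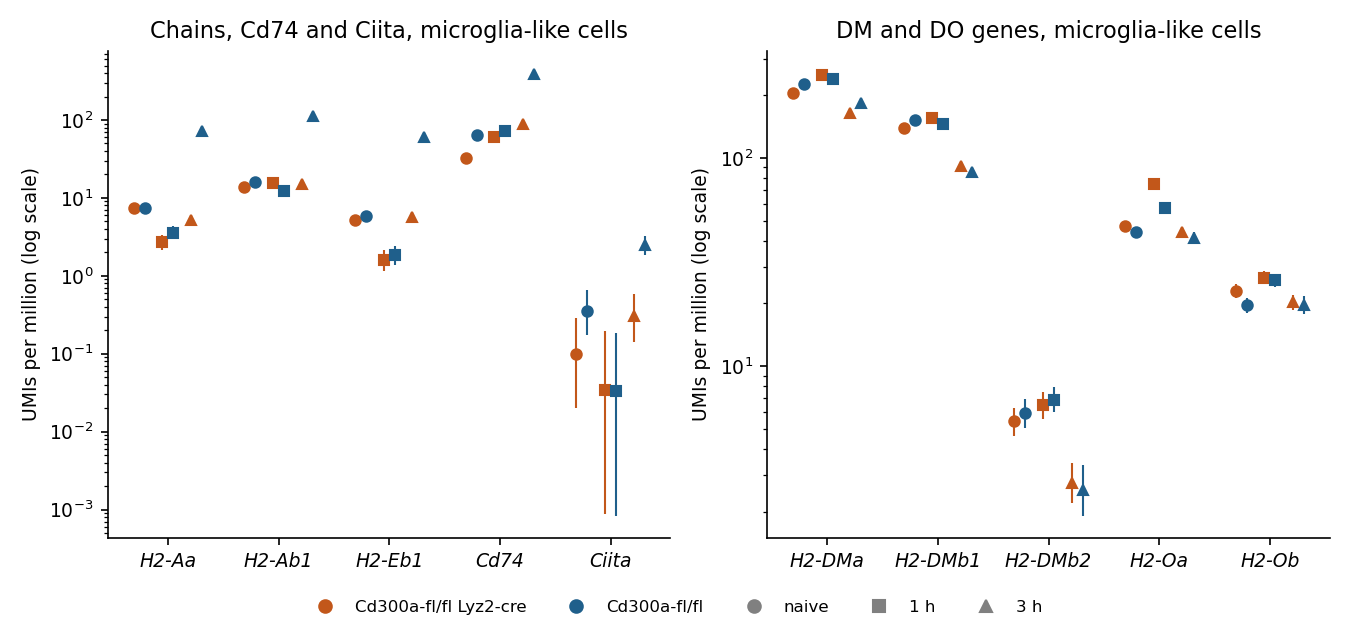
Level of each of the 10 genes in microglia-like cells (CPM within the class, log axes), with Lyz2-cre in orange left of fl/fl in blue, the time given by the symbol and exact Poisson intervals (95%) as lines. Fl/fl 3 h is the highest point for H2-Aa, H2-Ab1, H2-Eb1, Cd74 and Ciita in the left panel, while in the right panel both 3 h points are the lowest of the 6 for H2-DMa, H2-DMb1 and H2-DMb2.

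Times were compared across both genotypes (2 libraries per time) and genotypes across the 3 times (3 libraries per genotype), with edgeR's quasi-likelihood test on the summed counts of each class and Benjamini-Hochberg adjustment over all genes at 0.05. The additive model of genotype and time leaves 2 residual degrees of freedom. A difference of the time course between genotypes, such as 1 high library, therefore enters the error, and fl/fl 3 h against Lyz2-cre 3 h, with 1 library each, has no test. A gene not called is not thereby shown to be equal.

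In microglia-like cells at 1 h against naive, 3 of the 10 genes rose and none fell, where 14.1% of the 12809 genes tested rose and 12.7% fell. H2-Oa rose by 0.64 ± 0.10 on the log2 scale (SE, adjusted p = 0.00290), H2-Ob by 0.41 ± 0.10 (adjusted p = 0.0141) and H2-DMa by 0.29 ± 0.09 (adjusted p = 0.0418). The other values were -2.57 ± 0.95 for Ciita, -1.31 ± 1.64 for H2-Aa, -1.74 ± 1.55 for H2-Eb1, 0.68 ± 0.69 for Cd74, 0.34 ± 0.16 for H2-DMb2, 0.16 ± 0.09 for H2-DMb1 and 0.08 ± 1.24 for H2-Ab1, none of them called. The median log2 fold change was 0.23 over the 10 genes and -0.01 over all genes. These counts turn on single libraries: with 1 library left out they were 1 without fl/fl naive or fl/fl 1 h, 0 without Lyz2-cre naive or Lyz2-cre 1 h, 6 without fl/fl 3 h and 7 without Lyz2-cre 3 h. H2-Oa lost its call without Lyz2-cre naive or Lyz2-cre 1 h, and H2-DMa and H2-Ob lost theirs without any 1 of the naive or 1 h libraries. Most naive microglia-like cells were in clusters 3 and 4, most 1 h cells in clusters 0 and 9, and most 3 h cells in clusters 2, 6, 7 and 8.

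At 3 h against naive, Ciita rose by 2.55 ± 0.52 (adjusted p = 0.00320), while H2-DMb1 fell by 0.63 ± 0.09 (adjusted p = 0.000444) and H2-DMb2 by 1.01 ± 0.17 (adjusted p = 0.00131). So 1 gene rose and 2 fell, against 24.5% and 23.3% of all genes. Cd74 was at 2.19 ± 0.71 (adjusted p = 0.128), H2-Eb1 at 2.11 ± 1.26, H2-Ab1 at 1.87 ± 1.23 and H2-Aa at 1.82 ± 1.46, and none was called. For each of these 4 genes the 3 h libraries of the genotypes lie far apart. H2-DMa was at -0.23 ± 0.09 (adjusted p = 0.0632), and H2-Oa and H2-Ob at -0.02 and -0.01. The median was 0.91 over the 10 genes and -0.02 over all genes. The former lies in a gap between H2-Ob at -0.01 and H2-Aa at 1.82, so it describes no gene and is not a shared rise. Without Lyz2-cre 3 h, the count became 7, with Cd74 at 2.88, H2-Aa at 3.30, H2-Ab1 at 3.06 and H2-Eb1 at 3.46 called, and without fl/fl 3 h H2-Aa was at -0.41. Ciita lost its call without fl/fl naive (1.79, adjusted p = 0.252), without fl/fl 3 h (1.39, adjusted p = 0.325) and with DESeq2 (2.41, adjusted p = 0.0508), and Cd74 was called with DESeq2 (2.19, adjusted p = 0.00619). H2-DMb1 and H2-DMb2 kept their call without each of the 6 libraries. H2-DMb2 lost it when cells holding markers of other classes were left out (-0.76, adjusted p = 0.118 in edgeR). That filter kept only 601, 734 and 2788 microglia-like cells in Lyz2-cre and 861, 1383 and 1687 in fl/fl mice. Its markers included Fscn1 and Csf3r, held by 72.7% and 54.5% of microglia-like cells, so the lost call is not specific to removing cells of other classes.

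Between Lyz2-cre and fl/fl mice no class II gene was called in microglia-like cells (edgeR), where 0.0546% of all genes were higher and 0.429% lower in Lyz2-cre mice. At an unadjusted p under 0.05 there was 1, Ciita, at -2.61 ± 0.51 (adjusted p = 0.0802), and DESeq2 called 0. Cd74 was at -1.20 ± 0.58 and H2-Aa at -1.66 ± 1.30, with the widest gap between genotypes at 3 h for both. Without fl/fl 3 h or without Lyz2-cre 3 h, Cd74 was at -0.63 in each. In both fits the additive model takes the genotype effect from the same naive and 1 h libraries, so they are not separate results.

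Partner genes in microglia-like cells are read here against 14.1% of all genes called higher and 12.7% lower at 1 h, and 24.5% higher and 23.3% lower at 3 h. Of 13 proteases and helpers 9 rose and 0 fell at 1 h (median log2 fold change 0.47), led by Ctsb (0.86 ± 0.11), a cathepsin, with Ctsl at 0.67, Psap at 0.60 and Ctss, the cathepsin that trims CD74 in many cells, at 0.54. At 3 h 2 rose and 2 fell. Cd83, which protects class II on the surface from degradation, rose by 2.92 ± 0.11 at 1 h and 3.65 ± 0.11 at 3 h. March1, a ubiquitin ligase that removes class II, rose by 0.37 at 3 h. Of the 7 turnover genes tested 4 rose at 1 h and 6 at 3 h, and none fell. Of 22 regulators of class II transcription 1 rose and 4 fell at 1 h and 5 rose and 9 fell at 3 h, with Irf4 at 1.55, Nfyb, an NF-Y subunit, at 0.95, Jak1 at 0.69 and Socs1, an inhibitor of JAK signalling, at -0.77. Of 9 costimulation genes 6 rose and 1 fell at each time, and Cd86 was at 0.75 and 1.35 and Cd274, which encodes PD-L1, at 1.996 at 3 h. At 3 h the class I list, of 12, had 2 genes called higher, among them its transactivator Nlrc5 at 1.11, and 3 called lower, and the interferon list, of 13, had 2 called higher, with Cxcl10 at 2.90. The class I and interferon shares called at 3 h were thus below those over all genes or close to them.

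Between genotypes, genes of this neighbourhood that fell in Lyz2-cre mice were Nlrc5 at -1.36 ± 0.17 (adjusted p = 0.0127), Cxcl9, an interferon gamma-induced chemokine, at -3.07 ± 0.33 (adjusted p = 0.0185), Cd274 at -0.65 ± 0.09 (adjusted p = 0.0185), Irf1 at -0.57 ± 0.09 (adjusted p = 0.0231) and Cd83 at -0.48 ± 0.08 (adjusted p = 0.0455). They are 1 of 12 MHC class I, 1 of 13 interferon-response, 1 of 9 costimulation, 1 of 22 regulator and 1 of 7 turnover genes. Over all 12809 genes tested 0.429% were called lower in Lyz2-cre mice, and each list gave a single called gene. The medians of these lists were -0.28, -0.79, -0.14, -0.05 and -0.08, against 0.00 over all genes. None of the 13 proteases or 15 disease-associated microglia genes was called.

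The class II UMIs of fl/fl 3 h microglia-like cells were then placed cell by cell. For the chain genes and Cd74, 13226 UMIs in 4750 cells lay in 33.2% of the cells, where 89.8% of cells would hold one if UMIs followed each cell's depth alone. The top 1% of cells held 45.0% of these UMIs and the top 10% held 87.8%. The DM and DO genes were spread: their 6917 UMIs lay in 63.9% of cells against 73.0% by depth alone, and the top 1% held 7.78%. The variance of the depth-scaled counts relative to a Poisson spread was 51.0 for the chains and Cd74 and 1.79 for DM and DO, and for B2m, the class I light chain, in the same cells it was 2.68. The UMIs of the chains and Cd74 thus sat mainly in few cells, and most cells held none. Those of the DM and DO genes lay closer to a spread by depth.

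Member by member the same division showed. H2-Aa was seen in 5.92% of fl/fl 3 h microglia-like cells, where depth alone would give 26.3%, and H2-Ab1 in 11.2% against 37.4%. H2-Eb1 was seen in 5.68% of them and Cd74 in 27.7% against 78.1%. H2-DMa was seen in 46.4% against 53.0% and H2-DMb1 in 27.7% against 30.6%. Ciita was seen in 0.926% against 1.07%, at 51 UMIs.

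The UMIs were concentrated in the other libraries too. In the naive, 1 h and 3 h libraries of Lyz2-cre mice, the chains and Cd74 lay in 16.7%, 18.4% and 21.1% of microglia-like cells, and the top 1% held 40.9%, 32.1% and 29.6%. In fl/fl naive and 1 h they lay in 17.5% and 18.8%, and the top 1% held 48.5% and 35.2%. After each cell was thinned to 2000 UMIs, they lay in 7.48%, 10.4% and 13.9% of cells in Lyz2-cre and in 8.83%, 10.99% and 23.8% in fl/fl mice. Shallower cells were left out, 121, 167 and 612 in Lyz2-cre and 142, 185 and 348 in fl/fl mice. Neutrophil-like cells, which should lack class II, gave 3.40%, 3.49% and 8.12% in Lyz2-cre and 1.87%, 5.98% and 6.86% in fl/fl mice after the same thinning, and a share at or below these values is read as background. Before thinning they gave 8.78%, 6.08% and 11.3% in Lyz2-cre and 4.29%, 6.38% and 10.3% in fl/fl mice, at median depths of 4177, 3537 and 2554.5 UMIs in Lyz2-cre and 3153, 2145.5 and 2893 UMIs in fl/fl mice, where microglia-like cells had medians of 3901 to 5196 UMIs.

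**Figure D3:**
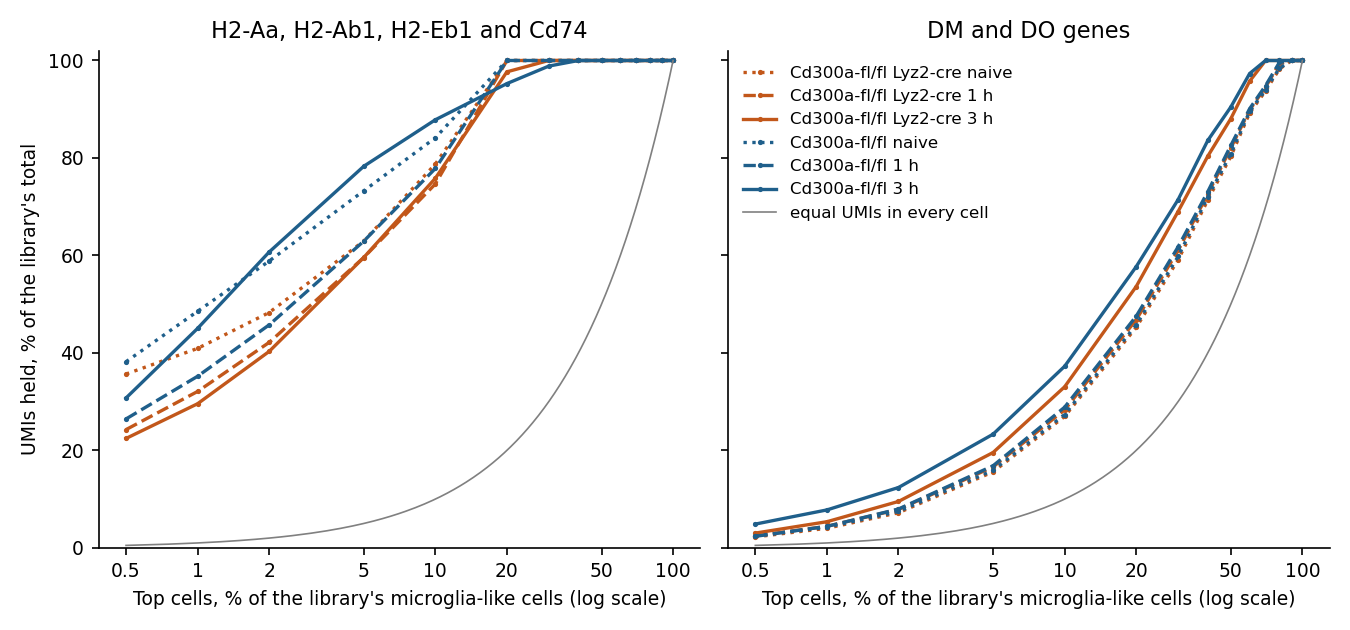
Share of a library's UMIs (%) held by its microglia-like cells with the most UMIs of the 3 chain genes and Cd74 (left) or of the DM and DO genes (right), against the share of cells taken (%, log axis); Lyz2-cre in orange, fl/fl in blue, and a grey curve for equal UMIs in every cell. The left curves rise far above the grey one in all 6 libraries, with 45.0% of the UMIs in the top 1% of fl/fl 3 h cells, against 7.78% for the DM and DO genes.

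Cells with 10 or more UMIs of the 10 genes were called class II-high. In the naive, 1 h and 3 h libraries of Lyz2-cre mice there were 35 of 5712 (0.613%), 71 of 7023 (1.01%) and 50 of 7323 (0.683%). In fl/fl mice there were 91 of 5553 (1.64%), 94 of 6875 (1.37%) and 266 of 4750 (5.60%). The exact 95% interval was 0.507% to 0.899% in Lyz2-cre 3 h and 4.96% to 6.29% in fl/fl 3 h, with no replicate of either. Thinned to 2000 UMIs, the shares at 3 h were 0.0745% in Lyz2-cre and 2.82% in fl/fl mice. At 5 or more UMIs fl/fl 3 h did not stand apart from fl/fl naive: the shares were 14.1%, 13.4% and 7.26% in Lyz2-cre and 15.4%, 13.5% and 15.4% in fl/fl mice. At 50 or more UMIs there were 3, 1 and 2 cells in Lyz2-cre and 4, 2 and 68 in fl/fl mice.

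All 4750 fl/fl 3 h cells fell into 25.9% with no class II UMI, 23.6% with 1, 35.1% with 2 to 4, 9.81% with 5 to 9 and 5.60% with 10 or more. The high cells held 79.4% of the UMIs of the chains and Cd74, and 17.2% of those of the DM and DO genes. The chains and Cd74 were at 6373 CPM in them and at 142 CPM in the remaining cells of that library. In the remaining cells of the other libraries they were at 40.3, 60.2 and 88.0 CPM in Lyz2-cre naive, 1 h and 3 h and at 47.2 and 60.0 CPM in fl/fl naive and 1 h.

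Since the 10-UMI rule uses the class II genes, the others were also read in cells picked by Cd74 alone, with 10 or more UMIs of it. There were 6, 17 and 20 such cells in Lyz2-cre naive, 1 h and 3 h, and 31, 30 and 185 in fl/fl naive, 1 h and 3 h. In the 185 cells of fl/fl 3 h H2-Aa was at 1107 CPM, H2-Ab1 at 1491, H2-Eb1 at 922 and Ciita at 19.7, against 9.84, 29.0, 8.87 and 1.43 CPM in the remaining cells. H2-DMa was at 394 against 171 CPM, H2-DMb1 at 213 against 78.2 and H2-Oa at 121 against 36.5. Every gene listed was higher in the cells picked by Cd74, and the peptide-loading genes less so than the chains.

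The class II-high cells of fl/fl 3 h also held more MHC class I and interferon-induced transcripts. Cells are not replicates, so these are descriptions of 1 library. The share of all genes that was higher in high cells is not given. The counts of higher or lower genes here and below are therefore not read as an excess. All 12 MHC class I genes were higher in high cells, and their sum was 10166 CPM in them and 4025 CPM in the others. H2-K1 was at 2520 and 778 CPM, H2-Q7, a non-classical class I gene, at 357 and 37.6, Tap1, a peptide transporter gene, at 131 and 39.3, and Nlrc5 at 30.9 and 7.42. Of 14 interferon-response genes 13 were higher, at 999 and 369 CPM in sum. Cxcl9 was at 113 and 0.680 CPM, and Gbp2, an interferon-induced GTPase, at 72.8 and 11.2. Rsad2, the only gene of that list not higher, was at 5.46 and 23.5. A list of 11 interferon gamma-induced genes, GTPases with a chemokine, was added after these values were seen, and all 11 were higher. Ifng itself had 0 UMIs in both sets of cells, which does not measure it in other classes. Which interferon acted was not tested.

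**Figure D4:**
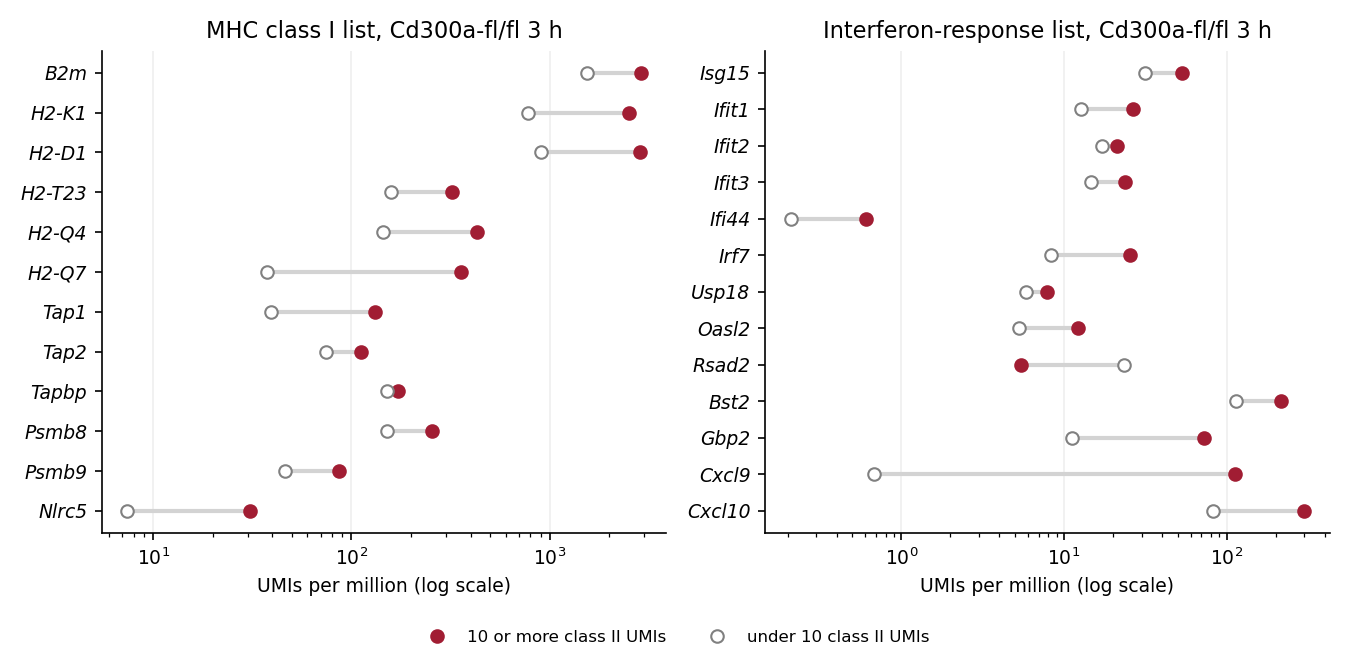
Level (CPM, log axes) of 12 MHC class I genes and 13 of the interferon-response genes in fl/fl 3 h microglia-like cells with 10 or more class II UMIs (filled, 266 cells) and with fewer (open). All 12 class I genes and every interferon-response gene plotted other than Rsad2 lie higher in the filled points.

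Other lists were read in the same high and other cells of fl/fl 3 h, again without a share over all genes. Of the regulators 13 of 22 were higher, with Irf1 at 78.9 and 49.9 CPM, Irf8 at 911 and 684, and Rfx5, a subunit of RFX, at 7.89 and 9.04. Apoe, Itgax and Axl, genes of disease-associated microglia, were at 2146 and 684, 16.4 and 4.76, and 37.0 and 9.30 CPM, and 12 of the 15 genes of that list were higher. Ccl5, a T-cell attractant, was at 92.8 and 7.58 CPM and Ccl12 at 2132 and 677, in a chemokine list added after values were seen, of which 9 of 10 were higher. Inducible chaperones, also added later, were lower in 8 of 9, with Hspa1a at 1393 and 8286 CPM. The same 8 were also lower in the high cells of both 1 h libraries. Hspa1a was at 361 and 1450 CPM in fl/fl 1 h and at 392 and 525 CPM in Lyz2-cre 1 h. The high cells of Lyz2-cre 3 h did not share this lower chaperone level. There Hspa1a (3753 and 4071 CPM) and Bag3 (108 and 114) were slightly lower, and the other chaperones were higher, with Hsp90aa1 at 3413 and 2078. The high cells lay mostly in cluster 2 (145 cells, led by Gdf15 and Rcan1) and cluster 6 (77 cells, led by Slc1a3), where they were 8.59% and 10.2% of the library's cells, and they were 35.0% of the 40 cells of cluster 5, led by Ccl12. In cluster 8, led by Hspa1a, they were 10 of 1018. Within cluster 2 the sum of the 10 genes was 446 CPM in Lyz2-cre 3 h and 1111 CPM in fl/fl 3 h, and within cluster 6 it was 394 and 1273 CPM, whereas in cluster 8 it was 460.0 and 409 CPM.

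High cells had more UMIs than other cells (a median of 5804 and 4200 in fl/fl 3 h), their doublet scores were 0.0407 and 0.0327, and their microglia markers summed to 17121 and 20169 CPM with none of the 10 higher. Markers of border-associated macrophages summed to 9.71 and 13.6 CPM, with 5 of 8 at 0, and those of monocytes to 26.7 and 26.9. Those of conventional dendritic cells summed to 164 and 202 CPM, mostly Fscn1 (152 and 192), which 72.7% of all microglia-like cells held. Of the others, Ccr7 (6.68 and 2.30 CPM), Flt3 and Snx22 were higher in high cells, and Zbtb46 and Itgae lower. Xcr1, Clec9a and Cd209a were at 0 in high cells, with only 7, 2 and 6 UMIs in the other cells. Those of B cells summed to 32.2 and 23.3 CPM, with 7 of 9 higher. Most of that was Cd79b (24.3 and 22.2 CPM), which 17.9% of all microglia-like cells held. Cd79a was at 3.64 and 0.470 CPM (6 and 9 UMIs) and Ebf1 at 1.82 and 0.261 CPM (3 and 5 UMIs), a wider gap than that of the sums. Over the 48 markers of other classes that are rare in microglia-like cells the sums were 74.6 and 75.5 CPM, and 9.40% of high cells and 4.84% of the others held at least 2 such UMIs. When all such cells were left out, the fl/fl 3 h level was 926 CPM and the top 1% held 30.3% of all class II UMIs, against 972 CPM and 31.6% with them. In Lyz2-cre 3 h the 50 high cells differed from the others by 4488 and 2958 CPM for class I and 647 and 257 for the interferon list, and in them the rare markers were at 118 and 79.5 CPM. The 91 high cells of fl/fl naive were at 8655 and 3908 CPM for class I and 1343 and 298 for the interferon list, with 14 of 14 higher.

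**Figure D5:**
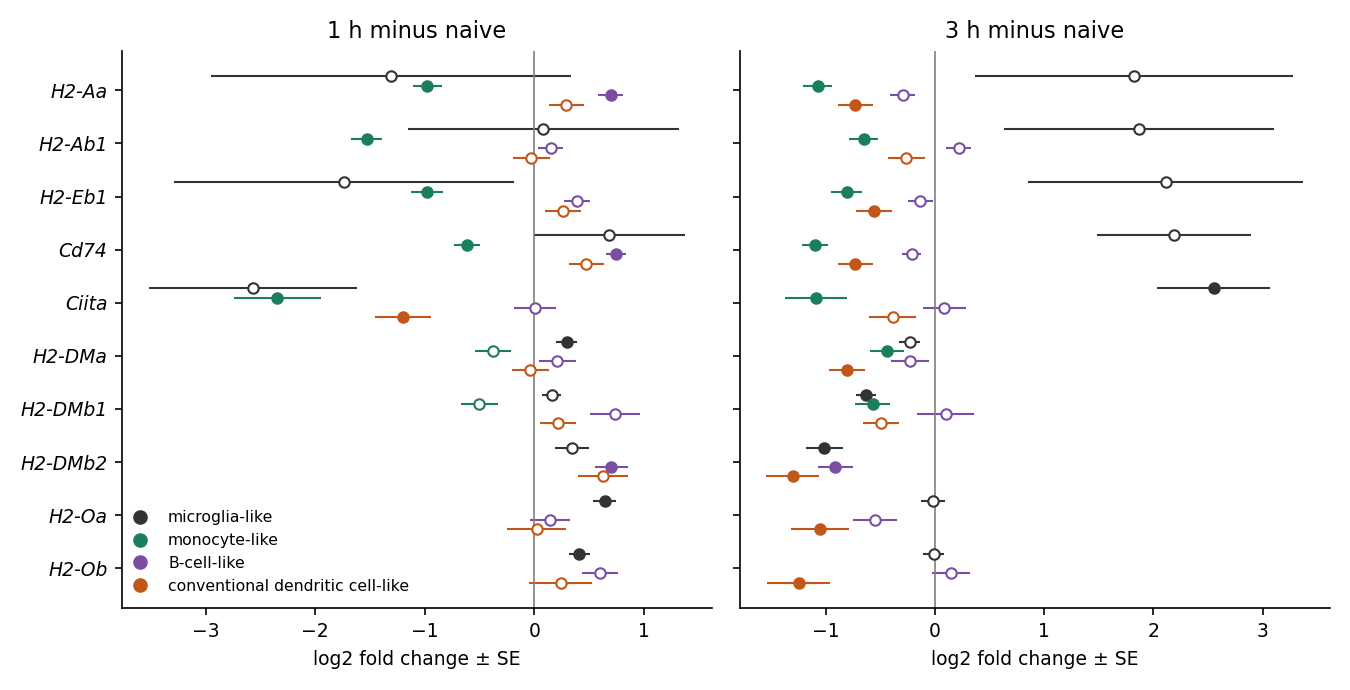
Log2 fold change with its standard error for each gene tested, at 1 h minus naive (left) and 3 h minus naive (right), in 4 classes from edgeR's additive model; filled points were called at an adjusted p of 0.05. Monocyte-like points lie left of 0 for all 7 genes tested at both times, while of the microglia-like points for H2-Aa, H2-Ab1, H2-Eb1 and Cd74, right of 0 at 3 h with wide errors, none is called.

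Monocyte-like cells held less class II after reperfusion in both genotypes. Cd74 was at 3260, 1731 and 1286 CPM in Lyz2-cre and at 3366, 2489 and 1528 CPM in fl/fl mice. H2-Ab1 was at 736, 229 and 393 CPM in Lyz2-cre and at 770, 275 and 477 CPM in fl/fl mice. H2-Aa was at 900, 441 and 381 CPM in Lyz2-cre and at 1034, 502 and 450.0 CPM in fl/fl mice. For all 3 genes both naive libraries stood above both 1 h and both 3 h libraries. Ciita was at 42.5, 12.1 and 15.5 CPM in Lyz2-cre and at 65.1, 5.09 and 31.3 CPM in fl/fl mice, lowest at 1 h in each.

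Of the 10 genes 7 passed the filter on low counts in monocyte-like cells, where 8608 genes were tested. At 1 h 5 fell and none rose, against 1.43% and 1.52% of all genes: Ciita by 2.35 ± 0.40 (adjusted p = 0.00748), H2-Ab1 by 1.53 ± 0.14 (adjusted p = 2.68e-05), H2-Eb1 by 0.98 ± 0.15 (adjusted p = 0.00171), H2-Aa by 0.98 ± 0.13 (adjusted p = 0.000779) and Cd74 by 0.62 ± 0.12 (adjusted p = 0.00990). At 3 h all 7 tested fell and none rose, against 12.7% and 13.0% of all genes. Cd74 fell by 1.10 ± 0.12 (adjusted p = 4.47e-06), Ciita by 1.09 ± 0.28, H2-Aa by 1.07 ± 0.13 and H2-Eb1 by 0.81 ± 0.14, and H2-Ab1, H2-DMb1 and H2-DMa by 0.65, 0.57 and 0.44. The median over the 7 genes was -0.98 at 1 h and -0.81 at 3 h, against 0.00 and -0.02 over all genes. The counts became 3 at 1 h without Lyz2-cre naive, and 4 at 3 h without fl/fl naive, without Lyz2-cre 3 h or with DESeq2. H2-Ab1, H2-Aa and H2-Eb1 at 1 h and H2-Aa, H2-Eb1 and Cd74 at 3 h kept their call without each of the 6 libraries. Between genotypes none was called (edgeR), against 0.0116% of all genes higher and 0.139% lower in Lyz2-cre mice. At an unadjusted p under 0.05 there were 4, all lower in Lyz2-cre mice, such as Cd74 at -0.30 ± 0.10 (adjusted p = 0.744), DESeq2 called 0, and without fl/fl 1 h there was 1, Ciita at -0.90.

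The make-up of the monocyte-like class changed with time, and its part in the fall cannot be told apart from a change within cells for the class as a whole. Microglia markers summed to 821, 487 and 252 CPM in Lyz2-cre and 848, 429 and 252 CPM in fl/fl monocyte-like cells, and their part in the fall was not tested. Genes of Ly6C-low monocytes, a list chosen after values were seen, summed to 2446, 1411 and 524 CPM in Lyz2-cre and 1691, 1408 and 572 CPM in fl/fl mice. Cluster 27, led by Ace, held 70.2%, 54.9% and 17.2% of the class in Lyz2-cre and 56.7%, 54.2% and 18.1% in fl/fl mice. Within that cluster the 10 genes summed to 4678, 1561 and 4375 CPM in Lyz2-cre and to 2476, 1937 and 4615 CPM in fl/fl mice. So within it the level at 3 h was not below that of naive cells in fl/fl mice and close to it in Lyz2-cre mice. In cluster 29, led by Plac8 and Fn1, the sums were 7486, 3401 and 10937 CPM in Lyz2-cre and 9423, 13084 and 9217 CPM in fl/fl mice. Cluster 35, led by Saa3 and Vcan, held no naive cell and was 47.5% of the class in Lyz2-cre 3 h and 46.7% in fl/fl 3 h, with sums of 2078 and 2742 CPM. Cluster 36, also led by Saa3, held 29.4% and 25.2% at 3 h with 1709 and 2158 CPM.

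In monocyte-like cells at 3 h, 9 of 12 MHC class I genes fell and none rose (median -0.62), and 6 of 14 interferon-response genes fell and none rose, against 12.7% lower and 13.0% higher over all genes, with Cxcl9 at -5.79 and Cxcl10 at -2.49. Of 21 regulators 3 rose and 5 fell, with Irf4 at -2.78, Irf8 at -1.32 and Irf1 at -1.21, and at 1 h none was called. Of 8 costimulation genes 2 rose and 4 fell, with Cd80 at 2.87 and Cd274 and Cd40 at -2.10 and -1.90. Ctsl, a cathepsin gene, was at 2.55, in a list of 13 proteases of which 4 rose and 3 fell.

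In B-cell-like cells several class II genes were higher at 1 h. Cd74 was at 12462, 20187 and 11014 CPM in Lyz2-cre and at 12373, 22734 and 11539 CPM in fl/fl mice. H2-Aa was at 2985, 4966 and 2469 CPM in Lyz2-cre and at 3051, 5099 and 2703 CPM in fl/fl mice. Both 1 h libraries stood above the other 4 for both genes. H2-DMb2, the DM beta gene that B cells use most, was at 524, 822 and 270.0 CPM in Lyz2-cre and at 506, 907 and 308 CPM in fl/fl mice, highest at 1 h and lowest at 3 h in each genotype. Ciita was at 162, 174 and 205 CPM in Lyz2-cre and at 234, 229 and 228 CPM in fl/fl mice, with fl/fl above Lyz2-cre at every time.

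Of the 10 genes tested in B-cell-like cells, 3 rose at 1 h and none fell, against 1.84% and 1.04% of 5557 genes: Cd74 by 0.74 ± 0.09 (adjusted p = 1.19e-05), H2-Aa by 0.70 ± 0.11 (adjusted p = 0.000771) and H2-DMb2 by 0.70 ± 0.15 (adjusted p = 0.00717). At 3 h none rose and 1 fell, against 3.78% and 3.29%: H2-DMb2 by 0.91 ± 0.16 (adjusted p = 0.000624). The median over the 10 genes was 0.49 at 1 h and -0.17 at 3 h, against -0.01 and 0.00 over all genes. Between genotypes none was called (edgeR; 1 at an unadjusted p under 0.05, Ciita at -0.34 ± 0.15, and DESeq2 called 0), against 0.0180% of all genes higher and 0.108% lower in Lyz2-cre mice. The 1 h count became 1 without Lyz2-cre naive and 5 without fl/fl 1 h, without Lyz2-cre 3 h, without the filter on low counts or with doublet removal at 1.6% per 1000 barcodes, and the 3 h count became 3 without Lyz2-cre 1 h. Cd74 at 1 h and H2-DMb2 at 3 h kept their call without each of the 6 libraries. Of 21 regulators 1 rose at 1 h (Ifngr2 at 1.11) and 4 at 3 h (Jak2 at 1.35, Ifngr2 at 1.21, Jak1 at 0.98, Irf2 at 0.68), and none fell. The B-cell-like classes held 97, 293 and 144 cells in Lyz2-cre and 58, 144 and 121 in fl/fl mice, and their precursor genes, a list chosen after values were seen, summed to 420.0, 529 and 356 CPM in Lyz2-cre and 608, 460.4 and 399.995 CPM in fl/fl mice. Their median mitochondrial share was 7.23%, 5.48% and 6.63% in Lyz2-cre and 7.66%, 6.06% and 6.08% in fl/fl mice. It was highest in the naive library of each genotype, and its part in the result was not tested.

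Conventional dendritic cell-like cells, with the highest level per UMI, held less of most class II genes at 3 h. The sum of the 10 genes was 59909, 62821 and 33524 CPM in Lyz2-cre and 57084, 72353 and 42912 CPM in fl/fl mice, and both 3 h libraries were below the other 4. H2-DMa was at 1197, 1157 and 689 CPM in Lyz2-cre and at 1184, 981 and 667 CPM in fl/fl mice. Ciita was at 357, 157 and 205 CPM in Lyz2-cre and at 411, 149 and 403 CPM in fl/fl mice. It was lowest at 1 h in both genotypes, when the chains were not.

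In the test on dendritic cell-like cells, Ciita fell at 1 h by 1.20 ± 0.25 (adjusted p = 0.00674), 1 of the 10 genes, and none rose, against 1.97% and 3.54% of 5445 genes. At 3 h 7 fell and none rose, against 5.58% and 6.50%. H2-DMb2 fell by 1.30 ± 0.24 (adjusted p = 0.00147), H2-Ob by 1.25 ± 0.29, H2-Oa by 1.05 ± 0.26, H2-DMa by 0.80 ± 0.17, Cd74 and H2-Aa by 0.73 ± 0.16 and H2-Eb1 by 0.55 ± 0.17. Those not called were H2-DMb1 (-0.50 ± 0.17), Ciita (-0.39 ± 0.22) and H2-Ab1 (-0.26 ± 0.17). The median over the 10 genes was 0.23 at 1 h and -0.73 at 3 h, against 0.00 and 0.01 over all genes. DESeq2 called 3 at 3 h and 0 at 1 h. The 3 h count was 3 without Lyz2-cre naive and 1 without Lyz2-cre 3 h, and the 1 h count 0 without fl/fl 1 h and 3 without Lyz2-cre naive. Between genotypes none was called (edgeR; 2 at an unadjusted p under 0.05, and DESeq2 called 0), against 0.0367% of all genes higher and 0.0551% lower in Lyz2-cre mice, while 3 were called, all lower, without fl/fl naive or without Lyz2-cre naive: Cd74, H2-Ab1 and H2-Eb1. Both of those fits take the genotype effect from the same 1 h and 3 h libraries, so they are not separate results. Genes of migratory dendritic cells, chosen after values were seen, summed to 703, 74.4 and 888 CPM in Lyz2-cre and 756, 60.4 and 87.2 CPM in fl/fl mice. Microglia markers summed to 662, 397 and 345 CPM in Lyz2-cre and 544, 316 and 231 CPM in fl/fl mice. The part of either in the result was not tested. The classes held 45, 25 and 68 cells in Lyz2-cre and 44, 22 and 41 in fl/fl mice. Cd86 and Cd80, costimulatory ligands, rose by 1.49 and 1.61 at 1 h and by 1.44 and 1.71 at 3 h.

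Border-associated macrophage-like cells were not among the classes planned for a test. Their 10-gene sum was 59642, 52142 and 31933 CPM in Lyz2-cre and 51974, 44231 and 37252 CPM in fl/fl mice, lowest at 3 h in each genotype. The DM and DO genes summed to 1921, 1640 and 643 CPM in Lyz2-cre and 1708, 1452 and 585 CPM in fl/fl mice. Ciita was at 227, 16.3 and 38.9 CPM in Lyz2-cre and at 185, 78.7 and 6.80 CPM in fl/fl mice, highest in the naive library of each.

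Class II was split within the border-associated macrophage-like class, and the division was chosen after its values were seen. Of 339 cells, 220 (64.9%) had 10 or more UMIs of the 10 genes and 57 had none, and the sums were 67407 and 372 CPM in those with 10 or more and those with fewer. The high cells had Ccr2, a receptor of monocyte-derived cells, at 892 and 0 CPM, while Lyve1, Folr2 and Cd163, markers of long-lived border macrophages, were at 22.2 and 552, 44.5 and 331, and 66.0 and 529 CPM. H2-K1, a class I gene, was at 1689 and 1602 CPM. High cells were 80 of 108, 15 of 30 and 23 of 51 in Lyz2-cre and 64 of 82, 14 of 27 and 24 of 41 in fl/fl mice. The share was highest in the naive library of each genotype.

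Classes also differed in which members they used. Of the UMIs of both DMb genes, H2-DMb2 made up 77.2% to 87.1% in Lyz2-cre and 74.7% to 88.2% in fl/fl B-cell-like cells, and 2.91% to 4.01% in Lyz2-cre and 2.89% to 4.52% in fl/fl microglia-like cells. The DO genes, known in mice mainly from B cells and some dendritic cells, were also seen in microglia-like cells. Over the 6 libraries H2-Oa ran from 41.2 to 75.0 CPM there, against 0.404 to 2.83 CPM in monocyte-like and 4.32 to 19.2 CPM in border-associated macrophage-like cells. H2-Ob ran from 19.6 to 26.6 CPM in microglia-like, against 0 to 4.07 CPM in monocyte-like cells. In both cases the lowest microglia-like library stood above the highest library of the other classes named.

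The ratio of H2-Ab1 to H2-Aa UMIs moved with time in 4 classes, a measure added after the values were seen. In border-associated macrophage-like cells it was 0.907, 0.666 and 1.05 in Lyz2-cre and 0.917, 0.669 and 1.21 in fl/fl mice. In B-cell-like cells it was 0.690, 0.430 and 0.952 in Lyz2-cre and 0.573, 0.432 and 0.848 in fl/fl mice. In monocyte-like cells it was 0.818, 0.518 and 1.03 in Lyz2-cre and 0.744, 0.548 and 1.06 in fl/fl mice, and in dendritic cell-like cells 0.825, 0.634 and 1.10 in Lyz2-cre and 0.798, 0.670 and 1.15 in fl/fl mice. It was lowest at 1 h and highest at 3 h in both genotypes in these 4 classes. Microglia-like cells did not share this order: the ratio was 1.83, 5.74 and 2.93 in Lyz2-cre and 2.13, 3.39 and 1.55 in fl/fl mice, highest at 1 h in both.

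Genes whose levels were most like the class II sum were sought over 48 sums of 8 classes and 6 libraries, as Pearson's r of log2(CPM + 1) over 8025 genes. Sums of 1 library share its pool and depth, and classes account for much of the spread, so these values describe only. Cd40 (r = 0.859), a costimulatory receptor gene, was the most like, then Scpep1 (0.811), Rel (0.807), an NF-kB subunit gene, Kmo (0.806), Kctd14 (0.806) and Rraga (0.805). Of the 10 genes themselves, which are part of the sum, Cd74 had r = 0.983 and H2-Ab1 0.972, and H2-Ob and H2-Oa had the lowest values, 0.667 and 0.549.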

How the data were processed

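Per the submitters' processing notes, the authors used Cell Ranger 3.0.2 and build mm10. The deposited values are raw UMI counts per gene and barcode, in filtered matrices. Per the labels' protocols, perfused brains went over a Percoll gradient before the sort, with stated viability above 85%, and the chemistry was 10x 3′ version 3. The titles call the earliest mice naive and the design text calls them 0 h after reperfusion, and the titles were followed. Members and gene lists were chosen with earlier results of these data known.

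Cells with under 300 genes or over 10% mitochondrial UMIs were dropped. Scrublet's own threshold called 0 to 360 barcodes per library, so the highest doublet scores were removed instead, at 0.8% per 1000 barcodes (408 to 895 per library). Python 3.11.15 and scanpy 1.11.5 took 2000 variable genes without class II, 30 components, 15 neighbours and Leiden resolution 1, and mixed clusters were clustered again. A cluster needed 3 or more of its class's markers in at least 10% of its cells, and clusters of other classes with P2ry12 in over 50% of cells stayed unnamed, a rule set after the clusters were seen. Sums of UMI counts over the cells of a class in a library were tested with edgeR 4.0.16 (R 4.3.3; TMM, filterByExpr, robust quasi-likelihood fit, genotype and time), with DESeq2 1.42.0 as an alternative. Median prior degrees of freedom were 7.63 (microglia-like), 14.1 (monocyte-like), 22.2 (B-cell-like) and 17.0 (dendritic cell-like). Standard errors come from the F statistic. The test was checked on simulated data, and no error rate from that check is given here. All 10 genes are named everywhere, and from each list up to 4 called genes with the largest changes. For other genes in class II-high cells the choice followed their values. Intervals are exact at 95% and cover counting error only. Each pool gives 1 library, so p-values test the effects of time and genotype with departure from additivity as the error. The values of 1 list gene are not reported here.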

Additional observations from a re-analysis of the deposited data

How the results depend on the processing

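No paired analysis was possible because each genotype and time has 1 library, with no replicate number to block on; genotype and time are both terms of the additive fit. Over 30 called values of single genes, 191 values under other settings kept the call in 170 and lost it in 21, with 0 reversals, and 180 leave-one-out values kept it in 132 and lost it in 48. Counts of called genes that moved by over 1.5 times were these, and the cause was not tested. In microglia-like cells the genotype count of 0 became 1 without the low-count filter, under the stricter cell filter (500 genes, 5% mitochondrial UMIs) and, chosen after seeing the data, without cells holding rare markers of other classes, each time Ciita. The 1 h count of 3 became 1 without cells holding other-class markers. That filter also ended the calls of H2-DMa, H2-Ob and, at 3 h, H2-DMb2 (-0.76, adjusted p = 0.118 in edgeR). It left out most cells of each library, keeping 734 of 7023 in Lyz2-cre 1 h and 1687 of 4750 in fl/fl 3 h. Fscn1, which 72.7% of microglia-like cells held, was among its markers. The 1 h count was 5 without class II-high cells, also chosen after seeing the data, a filter that uses the tested genes. With DESeq2 the counts were 4 for monocyte-like cells at 3 h and 0 and 3 for dendritic cell-like cells at 1 h and 3 h, and with class II genes kept in the clustering 2 for dendritic cell-like cells at 1 h. The B-cell-like count at 1 h was 5 without the low-count filter and with double doublet removal. With 1 library left out, where the arm with 1 library was assumed to vary like the others, counts ran at 1 h, 3 h and between genotypes from 0 to 7, 2 to 7 and 0 to 1 in microglia-like, 3 to 5, 4 to 7 and 0 to 1 in monocyte-like, 1 to 5, 1 to 3 and 0 to 0 in B-cell-like, and 0 to 3, 1 to 8 and 0 to 3 in dendritic cell-like cells. Signs turned, without a call, for microglia-like cells at 3 h in H2-Oa (0.00145 without other-class marker cells, -0.132 to 0.0907 with 1 library left out), H2-Ob (0.0118 under the stricter filter, -0.136 to 0.0756) and H2-Aa (-0.41 to 3.30). For fl/fl 3 h microglia-like cells the share in the top 1% was 29.3% without other-class marker cells, 30.3% without rare-marker cells and 25.3% thinned. The share of class II-high cells was 4.51% without other-class marker cells, 2.82% thinned, 15.4% at 5 or more UMIs, where fl/fl naive also had 15.4%, and 3.12% at 20 or more, where fl/fl naive had 0.486%. The level was 986 CPM with double doublet removal, 827 without other-class marker cells and 926 without rare-marker cells. The stricter cell filter was not run in B-cell-like cells, since a library fell to 1 cell. In the naive, 1 h and 3 h libraries it left 7, 106 and 18 such cells in Lyz2-cre and 1, 29 and 19 in fl/fl mice.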

Other observations

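Some class II UMIs lay in classes the comparisons did not use. The 835 unnamed cells held 10.3% of all class II UMIs, at 7427 CPM. The 41 plasmacytoid dendritic cell-like cells were at 9390 CPM and the 356 progenitor-like cells at 1683 CPM. In T-cell-like cells 1 cell of 81 in fl/fl 3 h held 504 class II UMIs, which sets most of that library's 1067 CPM, and in neutrophil-like cells 1 cell of 298 in fl/fl 1 h held 494, beside 643 CPM for its library.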
